A study of Homo sapiens with 18 samples.

Results

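The genes described here are the aryl hydrocarbon receptor (AHR) and 6 genes tied to it by role: its DNA-binding partner ARNT, its repressor AHRR, and the target genes TIPARP, CYP1A1, CYP1A2 and CYP1B1. They were picked by role, with earlier results of these data known, and are 7 of the 58884 genes counted. RNA was sequenced from T47D cells, an estrogen receptor-positive human breast cancer line, cultured for 48 hours with 10 μmol/L niraparib, with 10 μmol/L olaparib or with DMSO as vehicle. Both drugs are inhibitors of the enzyme PARP1, and the AHR genes bear on whether either acts on a xenobiotic receptor. Each treatment was given to cells labelled WT (T47D AAV) and to cells labelled PARP1 KO (T47D JL), with 3 libraries in each of the 6 groups and 18 in all. Each genotype is 1 line by its label, so a difference between genotypes cannot be told apart from a difference between these lines. Nothing in the labels says that the libraries of a group came from separate cultures, so P values measure the spread between these libraries. The study's methods describe several dishes for each condition, which the labels do not tie to libraries.

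AHR is a ligand-activated transcription factor. It rests in the cytosol in a complex with HSP90 and its co-chaperone p23. With a ligand such as dioxin or a tryptophan metabolite it enters the nucleus, pairs with ARNT and binds a short response element near its target genes. CYP1A1, CYP1A2 and CYP1B1 encode cytochrome P450 enzymes that oxidise polycyclic aromatic compounds and estrogens, and CYP1A1 is the classic readout of receptor activity. AHRR and TIPARP (also called PARP7, a mono-ADP-ribosyltransferase) are targets that restrain the receptor.

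Library totals lay between 28890837 and 52251288 counts. PARP1 itself was at 337 ± 26.95 CPM (reads of the gene per 1000000 counted, with library totals scaled by the TMM method; SD, n = 9) in WT and 25.1 ± 1.38 in PARP1 KO (SD, n = 9), or 7.45% of WT (two-sided exact permutation test, p = 4.1e-05, the smallest this design can give). All 8 luminal breast epithelial markers were at 1 CPM or more. Their summed level was between 8836 and 9756 CPM in the WT niraparib libraries, between 9640 and 10060 with olaparib and between 12330 and 12850 with DMSO. In PARP1 KO it was between 12630 and 13000 CPM with niraparib, between 11610 and 12680 with olaparib and between 13670 and 14400 with DMSO, so that the drug libraries lay below DMSO in both genotypes. The part of this shift in the results below was not tested. Leukocyte markers summed to at most 0.567 CPM and endothelial markers to at most 0.233 CPM in any library. Of the fibroblast markers COL1A1 alone, and of the hepatocyte markers SERPINA1 alone, reached 1 CPM. In such bulk samples, fewer expressing cells and less RNA per cell cannot be told apart.

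The DNA near the starts of these genes was read first, since it carries the element through which the receptor acts on its targets. The core of the AHR response element, GCGTG, and a longer form that contains it, TNGCGTG, were searched on both strands of the RefSeq promoter table (GRCh38.p14), from 250 bases before to 50 bases after each start. Entries were found for 6 of the genes, with 2 starts for AHRR and 3 for TIPARP; CYP1B1 had none. The core was found in 36.5% and the longer form in 5.51% of all 35116 promoters. From 1500 bases before to 50 after each start, these shares were 74.1% and 23.9%. In that longer window CYP1A1 held 10 cores, 5 of them of the longer form, a number reached by 8 of all 35116 promoters (0.0228%). The stretch shown first below lies on the minus strand at chr15:74726410-74726709 of GRCh38, from 1181 to 882 bases before the CYP1A1 start. The second is the 250 bases before the CYP1A1 start at chr15:74725529-74725778 on the minus strand, and the third the 250 bases before the first TIPARP start at chr3:156674340-156674589 on the plus strand (GRCh38.p14). Capitals mark the core, which reads CACGC where it lies on the other strand.
CYP1A1 upstream stretch: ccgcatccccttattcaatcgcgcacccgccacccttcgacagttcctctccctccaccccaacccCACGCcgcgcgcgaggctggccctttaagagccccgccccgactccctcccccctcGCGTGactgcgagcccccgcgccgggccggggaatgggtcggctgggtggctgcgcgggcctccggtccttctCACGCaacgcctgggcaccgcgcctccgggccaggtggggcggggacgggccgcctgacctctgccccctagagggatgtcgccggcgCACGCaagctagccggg
CYP1A1 before the start: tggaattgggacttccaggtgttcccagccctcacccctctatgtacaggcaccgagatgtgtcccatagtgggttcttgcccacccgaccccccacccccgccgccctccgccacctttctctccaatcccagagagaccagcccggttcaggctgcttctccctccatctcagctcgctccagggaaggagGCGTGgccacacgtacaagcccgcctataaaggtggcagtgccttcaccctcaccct
TIPARP before the start: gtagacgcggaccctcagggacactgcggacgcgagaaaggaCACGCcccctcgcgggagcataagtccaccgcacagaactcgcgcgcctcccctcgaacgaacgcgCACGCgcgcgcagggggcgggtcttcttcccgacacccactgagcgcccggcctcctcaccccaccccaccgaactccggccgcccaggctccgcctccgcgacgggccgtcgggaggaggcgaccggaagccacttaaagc
The CYP1A1 upstream stretch holds 4 cores, 3 of which extend to the longer form, while the 250 bases next to its start hold 1. TIPARP held 2 cores and no longer form in the 250 bases printed. In the wide window it held 6 cores at each of its first 2 starts, and 2 cores at the third, 1 of them of the longer form. AHR held 1 core in the wide window, 38 bases after its start. ARNT held 5 cores and 2 longer forms in the wide window, but 0 within its 300-base promoter. CYP1A2 held 1 core, 454 bases before its start. The first AHRR start held 4 cores in the wide window, with a longer form 32 bases upstream, and the second held 8 cores and 1 longer form. A match describes these letters and is not a measured binding site.

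**Figure D1:**
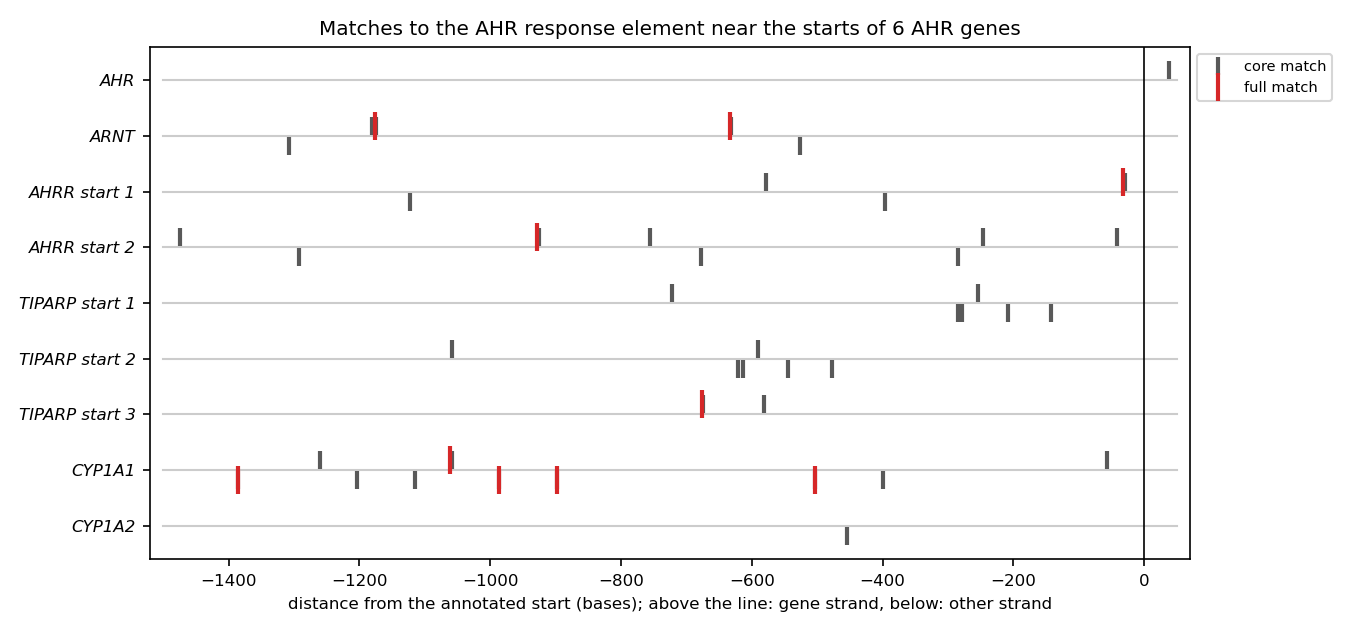
Positions of matches to the AHR response element from 1500 bases before to 50 bases after each start listed for 6 AHR genes (x axis, bases from the start), with grey ticks for the core and red ticks for the longer form (full match), above the line on the gene's strand and below it on the other. CYP1A1 has 10 cores and 5 longer forms, more than any other start shown.

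The genes spanned a wide range of levels. Per kilobase of exon not shared with another gene, CYP1B1 had the highest level in WT cells with DMSO, at 31.4 ± 1.54 CPM per kb (SD, n = 3). ARNT followed at 16.9 ± 0.411, TIPARP at 8.33 ± 0.694 and AHR at 4.77 ± 0.575 CPM per kb (SD, n = 3 each). CYP1A1 was at 0.698 ± 0.234 and AHRR at 0.0772 ± 0.0403 CPM per kb (SD, n = 3 each). No neighbours in this order overlapped among the WT DMSO libraries. With niraparib in WT cells, AHR (9.41 to 11.4 CPM per kb) overlapped TIPARP (11.2 to 11.9), and CYP1B1 (15.2 to 19.8) overlapped ARNT (18.5 to 19.7). Of the exon bases of AHR, 29.5% are shared with an unnamed gene on the same strand, to which 0 reads were assigned in any library; reads on shared bases were counted for neither gene.

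**Figure D2:**
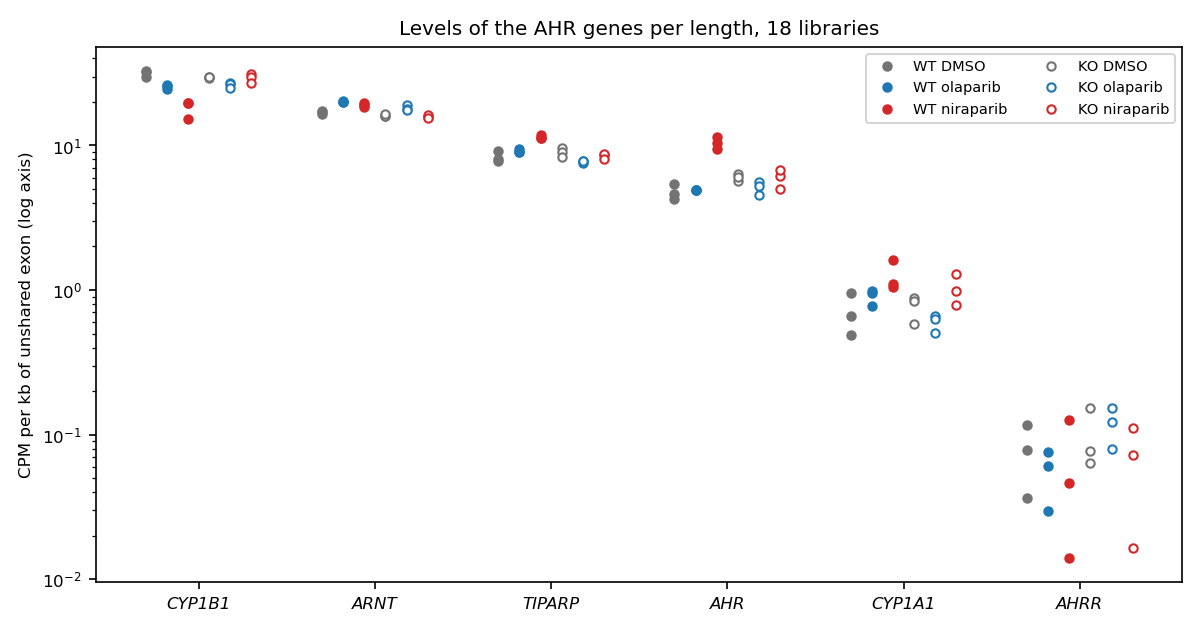
Levels of 6 AHR genes in CPM per kilobase of unshared exon (log axis), with 1 point per library, colored by treatment and filled for WT. CYP1B1 and ARNT lie highest and AHRR lowest, and in WT niraparib libraries (filled red) AHR moves up to the TIPARP level while CYP1B1 moves down to that of ARNT.

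CYP1A2 was all but undetected. It had between 0 and 3 counts in each library and 10 counts over all 18, so it was not tested and no fold is given. No library exceeded the 3 counts that a count of 0 allows. AHRR had between 1 and 15 counts per library. No difference in AHRR was detected on these counts, and the 95% confidence interval of its log2 fold change with niraparib in WT ran from -1.69 to 1.35. Of the AHRR exon bases, 52.8% are shared with another gene on the same strand. Reads on shared bases were counted for neither gene, and how many there were was not measured. That overlapping gene had between 41 and 99 counts per library on bases it does not share. In WT cells it lay between 1.77 and 2.13 CPM with DMSO, between 1.52 and 1.55 with niraparib and between 1.09 and 1.30 with olaparib, groups that did not overlap, while in PARP1 KO its niraparib (1.69 to 2.34 CPM) and olaparib (1.30 to 1.82) libraries overlapped DMSO (1.33 to 1.73). It was chosen after its values were seen and was not tested.

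With niraparib in WT cells, the receptor and CYP1A1 rose and CYP1B1 fell. Genes that changed by over 1.5-fold and whose adjusted P value in edgeR's quasi-likelihood test across 22446 genes was under 0.05 are termed called. Of the 6 AHR genes tested, 3 were called in this comparison, 2 higher and 1 lower, beside 13.8% of all genes tested (8.1% higher and 5.72% lower). Without the limit on fold, 5 of the 6 passed, beside 38% of all genes, and these 5 did not overlap DMSO, as was so for 46.7% of all genes. Each of these 5 had a mean of at least 1 CPM over the 18 libraries. Of the 13526 genes at such levels, a larger share passed without the limit on fold, 3940 higher and 3707 lower. The median log2 fold change of the 6 was 0.31 and that of all genes tested was -0.025.

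AHR (chromosome 7, 16916359 to 17346152 of GRCh38, plus strand) was at 24.2, 30.7 and 26.4 CPM in the 3 WT libraries with DMSO and at 53.4, 59.4 and 64.6 CPM with niraparib. Every WT niraparib library lay above all other libraries of either genotype. Its log2 fold change was 1.12 (SE 0.078, adjusted P = 8.4e-10, edgeR), a 2.17-fold increase. In the WT olaparib libraries AHR was at 28.1, 28.1 and 27.9 CPM, within the range of DMSO. The log2 fold change with olaparib was 0.047 with a 95% confidence interval from -0.12 to 0.21 (adjusted P = 0.75, edgeR), and AHR was 1.07 higher on the log2 scale with niraparib than with olaparib (SE 0.078, adjusted P = 3.4e-09).

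ARNT (chromosome 1, 150809713 to 150876708, minus strand), the partner that AHR needs to bind DNA, moved little. It was at 112, 106 and 110 CPM with DMSO, at 127, 123 and 119 CPM with niraparib and at 129, 129 and 131 CPM with olaparib in WT cells. Neither drug group overlapped DMSO; with olaparib, ARNT and CYP1B1 were the 2 of the 6 genes that did not, beside 36.1% of all genes. ARNT was thus above DMSO with each drug, by 0.17 on the log2 scale with niraparib (SE 0.046, adjusted P = 0.0043) and by 0.25 with olaparib (SE 0.046, adjusted P = 4.6e-04, edgeR), in both cases by less than 1.5-fold.

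TIPARP (chromosome 3, 156673235 to 156706770, plus strand) was at 37.5, 43.8 and 38.7 CPM with DMSO, at 53.8, 54.1 and 57.0 CPM with niraparib and at 43.1, 45.1 and 43.2 CPM with olaparib in WT cells. The niraparib libraries were above all others, and those with olaparib overlapped DMSO. The log2 fold change with niraparib was 0.45 (SE 0.060, adjusted P = 2.5e-06, edgeR), below the 1.5-fold limit, and the difference between niraparib and olaparib was 0.32 (SE 0.060, adjusted P = 2.1e-04). With olaparib the log2 fold change was 0.13 (adjusted P = 0.15). By its catalytic domain TIPARP is also counted in the PARP family.

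CYP1A1 (chromosome 15, 74719542 to 74725536, minus strand), whose upstream stretch and start are printed above, stayed at low levels in every group. It was at 1.63, 2.21 and 3.19 CPM with DMSO, at 3.69, 3.53 and 5.43 CPM with niraparib and at 2.59, 3.22 and 3.33 CPM with olaparib in WT cells, on 49 to 220 counts per library. The niraparib libraries lay above DMSO, though the lowest of them was close to the highest DMSO library. The log2 fold change with niraparib was 0.83 (SE 0.22, adjusted P = 0.0045, edgeR), a 1.78-fold increase. With olaparib it was 0.37 with a 95% confidence interval from -0.10 to 0.83 (adjusted P = 0.29). The drugs did not differ past the threshold for CYP1A1 in WT cells, with niraparib higher by 0.46 on the log2 scale and an interval from 0.016 to 0.91 (adjusted P = 0.11).

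CYP1B1 (chromosome 2, 38066973 to 38109902, minus strand), an enzyme that hydroxylates estradiol, moved opposite to CYP1A1. It was at 175.5, 189 and 193 CPM with DMSO, at 115.5, 90.2 and 117 CPM with niraparib and at 154, 152 and 146 CPM with olaparib in WT cells. The 3 groups did not overlap, with niraparib lowest and olaparib between. CYP1B1 fell by 0.79 on the log2 scale with niraparib (SE 0.087, adjusted P = 1.9e-05, edgeR), to 0.578 of the DMSO level. With olaparib the log2 fold change was -0.30 (SE 0.086, adjusted P = 0.032), and this adjusted P value was between 0.054 and 0.10 when any 1 of the 6 libraries was left out. CYP1B1 was lower with niraparib than with olaparib, with a log2 fold change of -0.49 between them (SE 0.087, adjusted P = 0.0010), which is less than 1.5-fold.

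With olaparib in WT cells 0 of the 6 AHR genes tested were called by edgeR or by DESeq2, beside 4.04% of all genes (edgeR). Without the limit on fold 2 passed, beside 19% of all genes, and 3 had an unadjusted P value below 0.05, beside 30.2%. Between niraparib and olaparib, AHR alone was called, beside 8.95% of all genes. Without the limit on fold TIPARP and CYP1B1 also passed, making 3 of 6 beside 32.2% of all genes, and the libraries of the drugs did not overlap for 5 of 6, beside 44%.

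**Figure D3:**
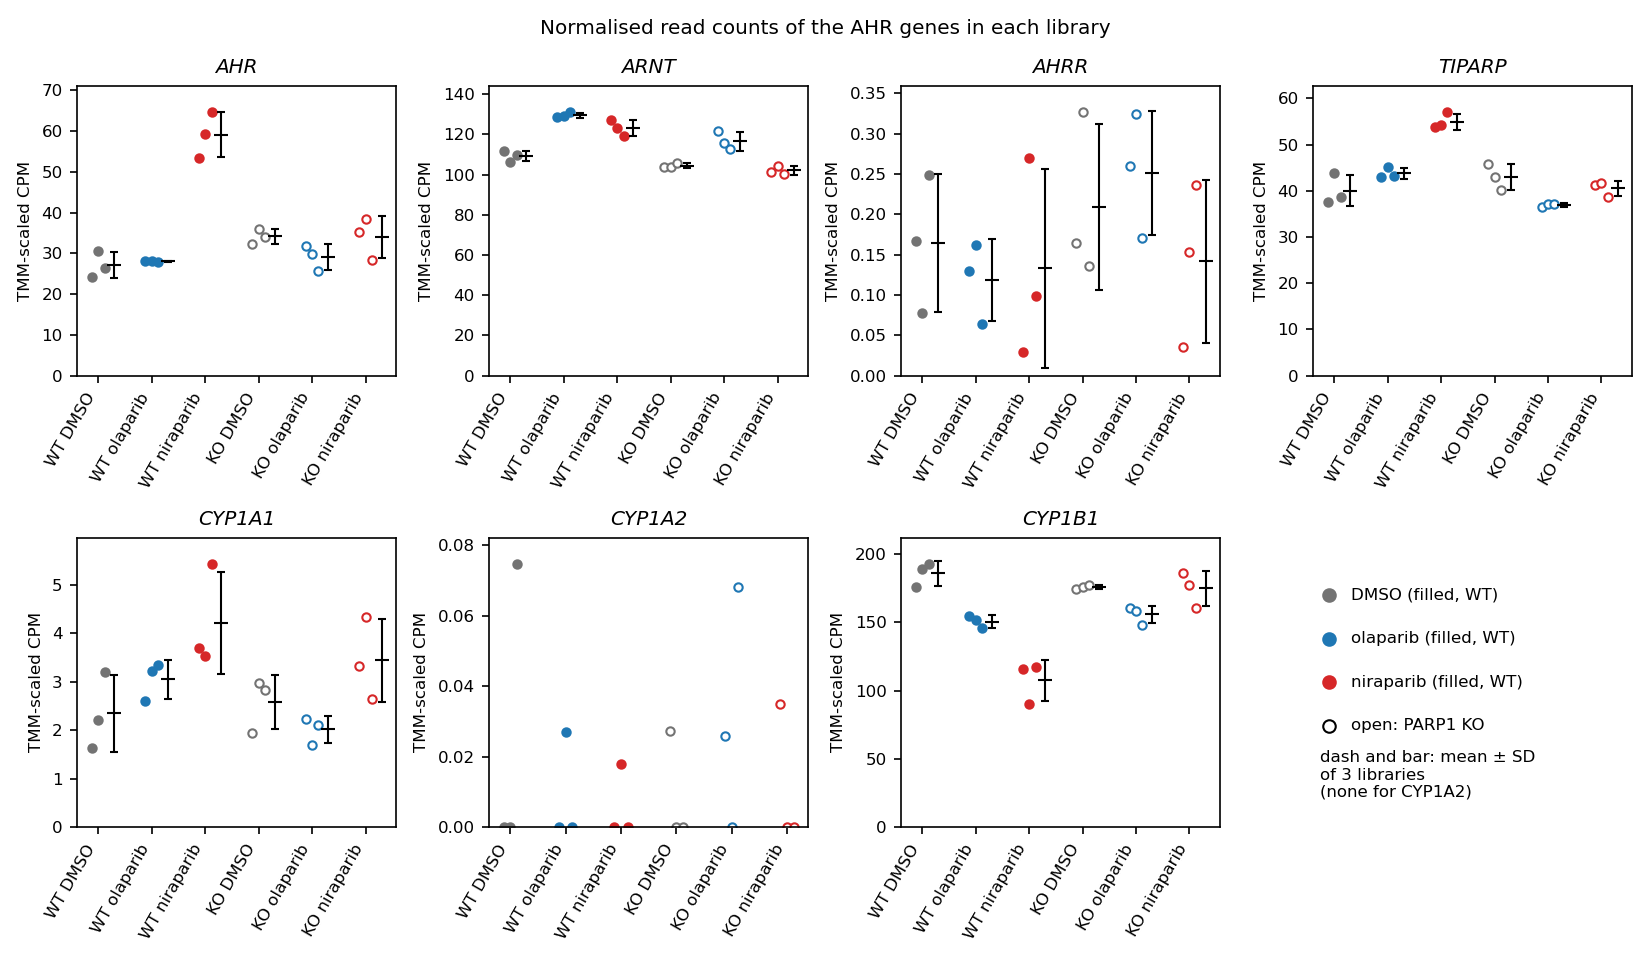
Normalised read counts (TMM-scaled CPM, linear axes from 0) of the 7 AHR genes in each of the 18 libraries, with points for libraries and dashes with bars for the mean ± SD of 3 libraries. AHR in WT niraparib libraries lies between 53.4 and 64.6 CPM and above all other libraries, and CYP1B1 is lowest there at 90.2 to 117 CPM.

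With niraparib in PARP1 KO cells none of the 6 genes tested passed the threshold. AHR was at 32.4, 36.0 and 34.1 CPM with DMSO and at 35.1, 38.5 and 28.4 CPM with niraparib, and the groups overlapped. Its log2 fold change was -0.0049 with a 95% confidence interval from -0.22 to 0.21, an interval that does not reach the WT change of 1.12. CYP1B1 was at 174, 176 and 177 CPM with DMSO and at 186, 177 and 161 CPM with niraparib (log2 fold change -0.0047, interval from -0.12 to 0.11). TIPARP had a log2 fold change of -0.080 (interval from -0.21 to 0.048) and ARNT one of -0.028 (interval from -0.13 to 0.076). CYP1A1 was at 1.94, 2.97 and 2.83 CPM with DMSO and at 3.33, 4.34 and 2.65 CPM with niraparib, with a log2 fold change of 0.41 (interval from -0.016 to 0.85, adjusted P = 0.57, edgeR). This interval includes the WT change of 0.83, and that of AHRR, from -1.80 to 0.91, was wider still. By edgeR and by DESeq2, 0 of the 6 genes were called with niraparib in PARP1 KO cells, and 0 had an unadjusted P value below 0.05, beside 0.0136% of all genes called, 0.109% past the adjusted P value alone and 9.14% past the unadjusted one (edgeR).

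The difference between the genotypes was tested as an interaction, the effect in PARP1 KO minus the effect in WT. For niraparib, 2 of the 6 genes were called, beside 8.88% of all 24675 genes tested. They were AHR, at -1.13 on the log2 scale (SE 0.15, adjusted P = 1.4e-05, edgeR), and CYP1B1, at 0.78 (SE 0.10, adjusted P = 4.8e-06). TIPARP at -0.54 (SE 0.087, adjusted P = 8.0e-06) and ARNT at -0.21 (SE 0.066, adjusted P = 0.019) differed by less than 1.5-fold, so that 4 of 6 passed without the limit on fold, beside 22.9% of all genes. The ARNT difference did not pass without WT DMSO replicate 2 (-0.19, adjusted P = 0.057). The effect on CYP1A1 was not shown to differ, with an interaction of -0.42 and an interval from -1.07 to 0.23 (adjusted P = 0.40). Thus CYP1A1 was called in WT and not in PARP1 KO, but the difference itself did not pass the test.

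Olaparib in PARP1 KO cells gave 0 called genes of the 6 by edgeR and by DESeq2, beside 0.803% of all genes (edgeR). TIPARP was at 45.9, 43.0 and 40.2 CPM with DMSO and at 36.5, 37.2 and 37.2 CPM with olaparib, and the groups did not overlap, as was so for 4 of the 6 genes and 25.9% of all genes. Its log2 fold change of -0.22 (adjusted P = 0.031, edgeR) and that of CYP1B1, -0.18 (adjusted P = 0.044), were below 1.5-fold, and these were the 2 of 6 past the adjusted P value alone, beside 8.29% of all genes. TIPARP did not pass without any 1 of DMSO replicates 1 and 2 and olaparib replicates 1 and 2 (adjusted P up to 0.15). CYP1B1 did not pass without any 1 of the 6 libraries other than olaparib replicate 1 (adjusted P up to 0.16), nor in 1 fit of all 18 libraries (adjusted P = 0.17) or with a replicate block (adjusted P = 0.055). The log2 fold changes of AHR, at -0.23, and ARNT, at 0.16, had adjusted P values of 0.20 and 0.051 (edgeR). Over the alternatives run, these adjusted P values ranged from 0.020 to 0.45 for AHR and from 0.023 to 0.17 for ARNT. DESeq2 passed 3 of the 6 genes by the adjusted P value alone. In edgeR 4 of the 6 genes had an unadjusted P value below 0.05, beside 21.1% of all genes. In the olaparib interaction 0 of 6 were called by either tool, beside 0.657% of all genes (edgeR), and 2 had an unadjusted P value below 0.05, beside 15.7%. TIPARP, the 1 of 6 past the adjusted P value alone (2.27% of all genes), was at -0.35 there (SE 0.087, adjusted P = 0.025) and CYP1A1 at -0.72 with an interval from -1.39 to -0.049 (adjusted P = 0.27). The TIPARP difference did not pass without any 1 of WT DMSO replicates 1 and 3, WT olaparib replicate 2, PARP1 KO DMSO replicates 1 and 2 and PARP1 KO olaparib replicate 2 (adjusted P up to 0.089).

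Between the drugs in PARP1 KO cells, CYP1A1 was the gene called among the 6, beside 1.07% of all genes. It was at 3.33, 4.34 and 2.65 CPM with niraparib and at 2.24, 1.69 and 2.11 CPM with olaparib, on 62 to 141 counts, and the groups did not overlap, as was so for 4 of the 6 genes and 25% of all genes. It was higher with niraparib by 0.77 on the log2 scale (SE 0.21, adjusted P = 0.021, edgeR). The call was lost without niraparib replicate 2 (0.57, adjusted P = 0.17) and without olaparib replicate 2 (0.67, adjusted P = 0.12). The log2 fold change of niraparib against olaparib was -0.19 for ARNT (adjusted P = 0.019) and 0.17 for CYP1B1 (adjusted P = 0.045). Both were under 1.5-fold, so that 3 of 6 passed without the limit on fold, beside 10% of all genes. Left out 1 at a time, 3 of the 6 libraries cost ARNT its place past the threshold (adjusted P up to 0.082) and 4 of the 6 that of CYP1B1 (adjusted P up to 0.22).

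The genotypes were also compared without drug. In DMSO, 0 of the 6 AHR genes were called between PARP1 KO and WT by either tool, beside 0.146% of all genes (edgeR), and AHR alone had an unadjusted P value under 0.05, beside 13.6%. Past the adjusted P value alone were 0 of 6 by edgeR, beside 1.39% of all genes. AHR lay between 32.4 and 36.0 CPM in PARP1 KO libraries and between 24.2 and 30.7 CPM in those of WT, and like ARNT it did not overlap between the genotypes (2 of 6, beside 19.3% of all genes). KO minus WT was 0.33 on the log2 scale for AHR, with an adjusted P value of 0.16 in edgeR and of 4.7e-04 in DESeq2, below 1.5-fold in either.

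**Figure D4:**
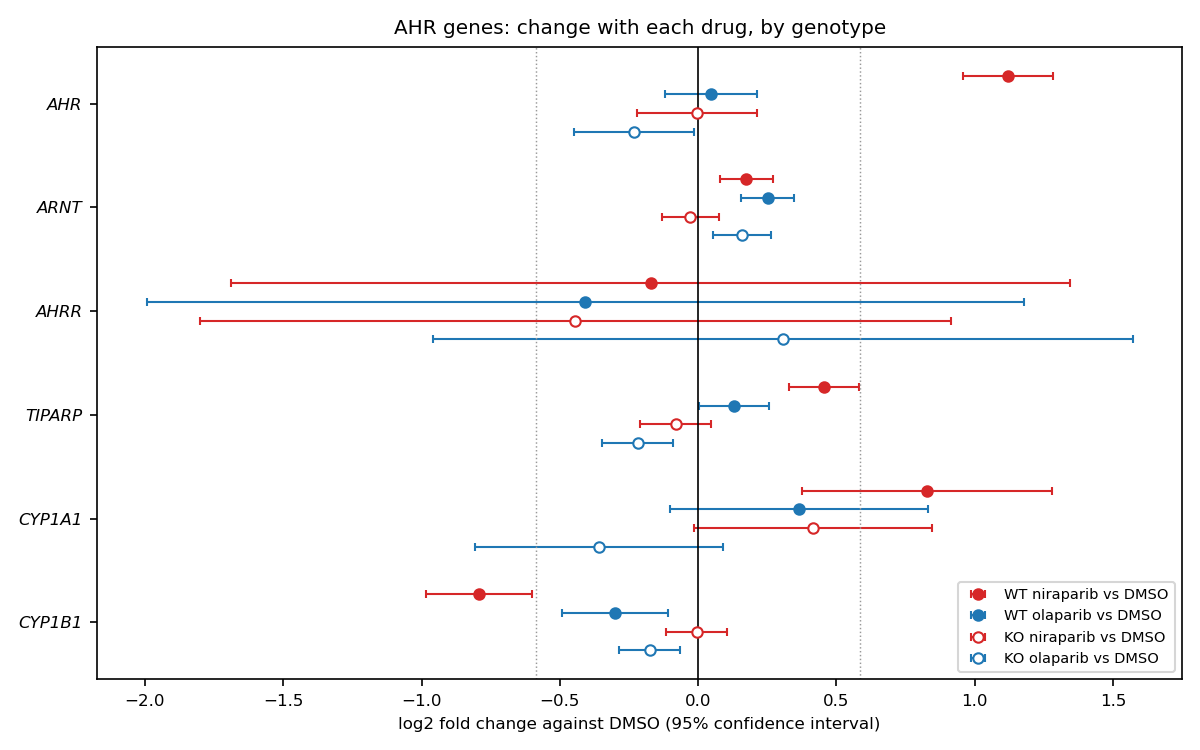
Log2 fold change against DMSO (x axis, points with 95% confidence intervals) of the 6 AHR genes tested, for niraparib (red) and olaparib (blue) in WT (filled) and PARP1 KO (open), with dotted lines at 1.5-fold. Filled red points lie right of the upper line for AHR (1.12) and CYP1A1 (0.83) and left of the lower line for CYP1B1 (-0.79), and the AHRR intervals are the widest.

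The rest of the pathway was read from lists of genes known for their roles in it. Of 7 genes of the cytosolic complex and partners, all tested, 2 were called higher and 1 lower with niraparib in WT cells, beside 8.1% and 5.72% of all genes. The co-chaperone p23 gene PTGES3, which steadies the HSP90 complex, was at 589, 618 and 612 CPM with DMSO and at 391, 368 and 413 CPM with niraparib, and fell by 0.64 on the log2 scale (edgeR, SE 0.050, adjusted P = 1.1e-09). The chaperone genes HSP90AA1 (-0.49, adjusted P = 1.5e-06) and HSP90AB1 (-0.37, adjusted P = 6.2e-06) fell by less than 1.5-fold. With olaparib in WT cells, where AHR was at 0.047, HSP90AA1 (-0.24, adjusted P = 0.0094) and PTGES3 (-0.16, adjusted P = 0.023) were also below DMSO, and HSP90AB1 was at -0.058 (adjusted P = 0.50). PTGES3 was at -0.22 with niraparib in PARP1 KO cells (unadjusted P = 5.3e-04, adjusted P = 0.13, edgeR). By the adjusted P value alone, 0 of the 7 complex genes passed there in edgeR and 1 in DESeq2.

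RELB, an NF-κB subunit that can pair with AHR, had the largest change of this list with niraparib in WT cells, on 107 to 960 counts in each of the 18 libraries. It was at 3.87, 4.61 and 4.09 CPM with DMSO, at 7.88, 7.20 and 7.75 CPM with olaparib and at 17.2, 17.3 and 15.7 CPM with niraparib in WT cells. The 3 groups did not overlap. The log2 fold change was 1.99 with niraparib (SE 0.10, adjusted P = 1.5e-12) and 0.85 with olaparib (SE 0.11, adjusted P = 6.1e-06, edgeR), and niraparib was above olaparib by 1.13 (adjusted P = 1.0e-08). In PARP1 KO the 9 libraries lay between 3.49 and 5.08 CPM, and the interaction was -1.89 for niraparib (adjusted P = 1.3e-10) and -0.87 for olaparib (adjusted P = 0.0037). The alternative partner ARNT2 had 27 counts over the 3 DMSO libraries and 70 over the 3 niraparib libraries in WT cells, and its call with niraparib (log2 fold change 1.32, SE 0.45, adjusted P = 0.023, edgeR) rests on these low counts.

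Of the 6 coregulator genes 0 were called in any of the 9 comparisons, beside between 0.0136% and 13.8% of all genes. DESeq2 also called 0, and 3 had an unadjusted P value below 0.05 in edgeR with niraparib in WT cells, beside 44.8% of all genes. The coactivator gene EP300 was 0.39 and the corepressor gene NRIP1 0.29 above WT DMSO there on the log2 scale (edgeR, adjusted P = 5.7e-05 and 4.7e-04).

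Among the enzymes that make or clear tryptophan-derived ligands of the receptor, 4 of 6 were tested and 2 were called higher with niraparib in WT cells, beside 8.1% of all genes, both of the kynurenine branch. KMO, which hydroxylates kynurenine, was at 1.13, 1.12 and 1.99 CPM with DMSO, at 5.12, 4.58 and 5.23 CPM with niraparib and at 1.24, 0.894 and 1.52 CPM with olaparib. KYNU, which cleaves kynurenine, was at 60.02, 73.0 and 75.7 CPM with DMSO and at 100.2, 104 and 118 CPM with niraparib. In neither gene did niraparib overlap DMSO. KMO rose by 1.80 (SE 0.21, adjusted P = 5.3e-07) and KYNU by 0.62 (SE 0.087, adjusted P = 9.8e-05) on the log2 scale, and with olaparib they were at -0.22 (adjusted P = 0.60) and 0.015 (adjusted P = 0.94, edgeR). Both interactions with niraparib were called, at -2.44 for KMO (adjusted P = 2.5e-06) and -0.66 for KYNU (adjusted P = 1.1e-05, edgeR). These were 2 of the 4 tested, beside 8.88% of all genes. IDO1 and IDO2, which start the pathway outside the liver, had at most 2 counts in any library, and TDO2 between 8 and 40. IL4I1, an amino acid oxidase that makes ligands from tryptophan, had 64 counts over the 3 DMSO libraries and 34 over the 3 niraparib libraries in WT cells, with a log2 fold change of -0.99 (interval from -1.92 to -0.060) that did not pass the threshold (adjusted P = 0.089, edgeR).

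Of 16 further genes known as AHR targets, 13 were tested and 6 were called with niraparib in WT cells, 5 higher and 1 lower, beside 13.8% of all genes. Their median log2 fold change was 0.39 and that of all genes tested -0.025. DESeq2 called 5 of them and gave PTGS2 no adjusted P value. EREG, an EGFR ligand, was at 0.6002, 0.640 and 0.623 CPM with DMSO, at 1.27, 1.30 and 0.984 CPM with olaparib and at 4.64, 6.88 and 6.37 CPM with niraparib. It rose by 3.26 on the log2 scale with niraparib (SE 0.21, adjusted P = 3.6e-11) and by 0.93 with olaparib (SE 0.23, adjusted P = 0.0067, edgeR). CYP2S1, another P450 of this group, was at 13.5, 14.6 and 13.7 CPM with DMSO and 25.5, 25.9 and 25.6 CPM with niraparib (log2 fold change 0.88, adjusted P = 1.4e-09). The amino acid transporter SLC7A5 (0.60, adjusted P = 8.9e-10) and the retinaldehyde dehydrogenase ALDH1A3 (0.64, adjusted P = 1.6e-06) also rose. With olaparib in WT cells CYP2S1 (0.35, adjusted P = 0.0013), SLC7A5 (0.28, adjusted P = 1.9e-04) and ALDH1A3 (0.40, adjusted P = 0.0014) rose by less than 1.5-fold (edgeR). PTGS2, which encodes cyclooxygenase-2, was called on 15 counts against 1, a ratio of 14.1 with a 95% counting interval from 2.17 to 593 that covers counting error only.

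NQO1, a quinone reductase controlled by NRF2 as well as AHR, went the other way. It was at 327, 354 and 356 CPM with DMSO, at 232, 196 and 236 CPM with niraparib and at 334, 350 and 334 CPM with olaparib in WT cells, and fell by 0.64 on the log2 scale with niraparib (SE 0.061, adjusted P = 5.8e-08, edgeR). With olaparib its log2 fold change was -0.025 (adjusted P = 0.83). Like CYP1B1, NQO1 was thus lower with niraparib while CYP1A1 was higher.

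In PARP1 KO cells 0 of the genes tested in these lists were called with either drug against DMSO by edgeR or DESeq2, beside 0.0136% of all genes with niraparib and 0.803% with olaparib (edgeR). Without the limit on fold, 0 passed with niraparib in edgeR, beside 0.109% of all genes, while DESeq2 passed 1 complex gene and 1 other target. With olaparib 1 coregulator passed in edgeR, beside 8.29% of all genes. DESeq2 passed 1 complex gene, 1 coregulator and 1 other target there. At an unadjusted P value below 0.05, 3 of 11 other targets, 1 of 4 ligand enzymes, 1 of 7 complex genes and 1 of 6 coregulators passed with niraparib, and 1, 1, 1 and 3 in the same order with olaparib, beside 9.14% and 21.1% of all genes. The 3 other targets with niraparib were NEDD9, SCIN and NQO1. On the log2 scale in PARP1 KO, NEDD9 was at 0.30 (interval from 0.15 to 0.45). SCIN was at 0.22 (interval from 0.081 to 0.37) and NQO1 at -0.13 (interval from -0.24 to -0.015). NEDD9 was at 0.39 in WT cells, and its interaction was -0.095 (interval from -0.30 to 0.10). The interactions of SCIN (0.33) and NQO1 (0.51) were under 1.5-fold. EREG, not among these 3, was at 0.74 with niraparib in PARP1 KO (interval from -0.0066 to 1.49). KMO, the ligand enzyme, was at -0.62 (interval from -1.19 to -0.060). The niraparib interaction was called for 2 of the 13 other targets tested, beside 8.88% of all genes. They were EREG at -2.52 (adjusted P = 4.4e-06) and CYP2S1 at -0.86 (adjusted P = 5.1e-07, edgeR).

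Genes of other xenobiotic receptors were near 0 in these cells. NR1I2, which encodes the pregnane X receptor, had 1 count over all 18 libraries, and NR1I3, which encodes the constitutive androstane receptor, had 17. The target genes CYP3A4, CYP3A5 and CYP2C8 had 5, 5 and 2 counts. CYP2B6 had 9 counts over the 3 WT niraparib libraries, 8 with DMSO and 0 with olaparib. It was called between niraparib and olaparib by edgeR, while DESeq2 gave it no adjusted P value. Against a floor of 3 counts over the olaparib group the ratio was 2.48, which leaves out the counting error of the 9 counts.

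**Figure D5:**
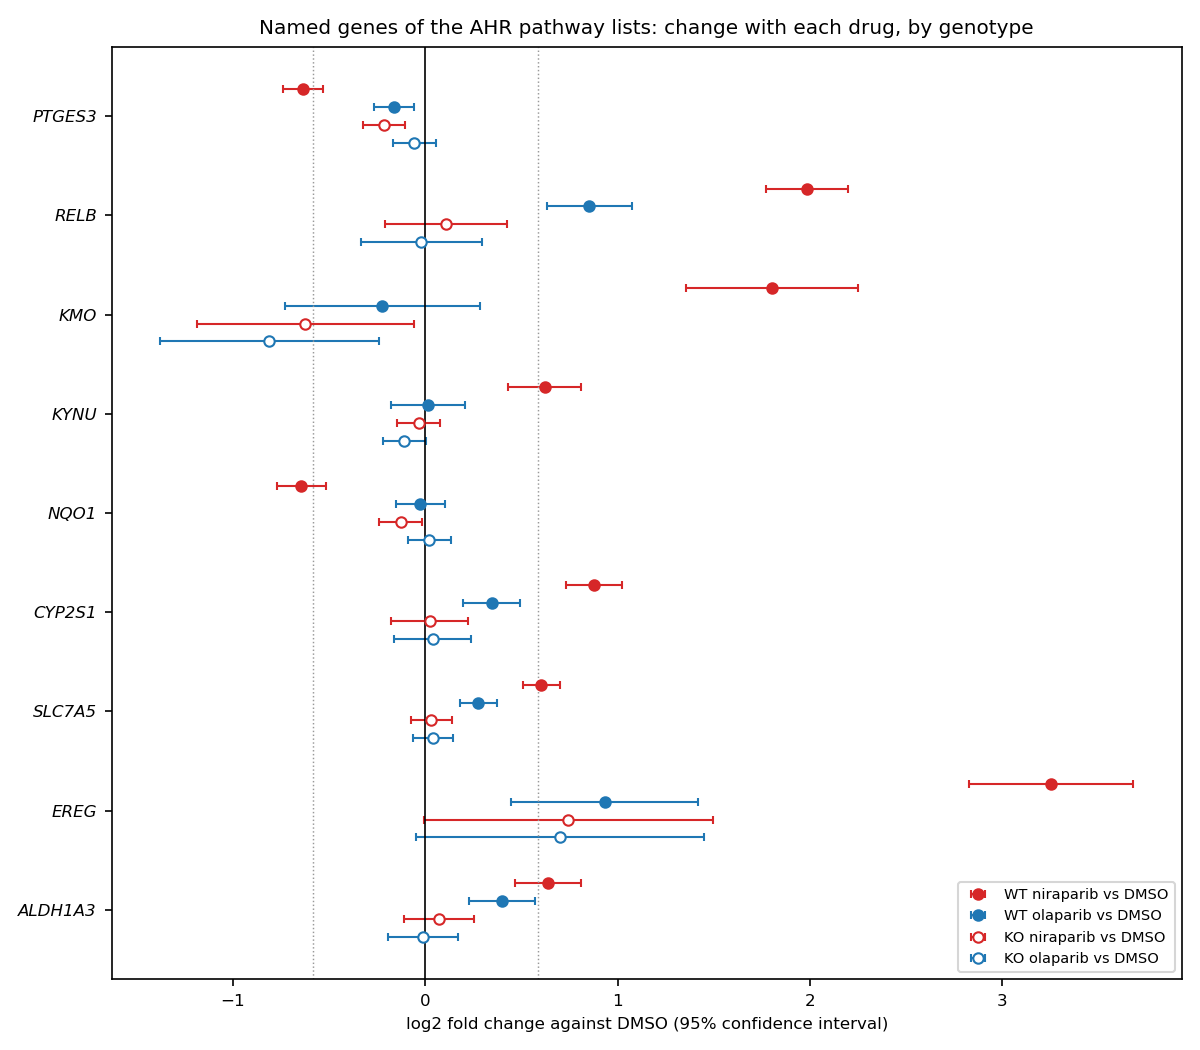
Log2 fold change against DMSO (x axis, points with 95% confidence intervals) of 9 named genes of the pathway lists, for niraparib (red) and olaparib (blue) in WT (filled) and PARP1 KO (open), with dotted lines at 1.5-fold. EREG (3.26), RELB (1.99) and KMO (1.80) lie farthest right with niraparib in WT, PTGES3 and NQO1 lie to the left, and genes with few counts (ARNT2, PTGS2, CYP2B6) are not drawn.

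Across the 18 libraries, the genes whose log2 levels ran most closely with each AHR gene were found among 13526 genes of at least 1 CPM by Pearson correlation, as a description only, since all values share the same libraries and treatments. AHR was closest to SLC35F6 (r = 0.96) and to the keratin gene KRT80 (r = 0.96). KRT80 was at 110, 146 and 136 CPM in WT DMSO and 285, 296 and 291 CPM in WT niraparib libraries. ARNT was closest to SERTAD2 and GARRE1 (r = 0.98 each). TIPARP was closest to ASCC2 (r = 0.96) and ZWINT (r = 0.95), and CYP1A1 to MRPS33 (r = 0.91) and SYTL2 (r = 0.90). CYP1B1 was closest to CYB561 and CAB39L (r = 0.98 each), and CAB39L was between 47.1 and 50.03 CPM in WT DMSO and between 21.9 and 27.7 CPM in WT niraparib libraries.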

How the data were processed

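RNA of 18 libraries was measured. Per the file headers and the paper's methods, the authors mapped reads to GRCh38 with STAR and deposited raw counts per gene from featureCounts 2.0.0 (Ensembl release 96, reverse strand, primary alignments), without normalization. Reads on exons of more than 1 gene were not counted. Labels and methods differ on RNA input, medium and kit, and the deposited file names carry the word deduplicated, whereas the methods describe marking of duplicates without their removal being mentioned. Library totals of 28890837 to 52251288 limit precision mainly for AHRR and CYP1A2.

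Genes with more than 10 counts in total entered a robust quasi-likelihood F test (edgeR 4.0.16, R 4.3.3) after TMM scaling, with Benjamini-Hochberg adjustment. The WT and the PARP1 KO fit used 9 libraries each; interactions and the genotype comparison used 18. The standard error is the log2 fold change over the square root of F. The tests were checked on simulated counts, and no pair of replicates looked like 1 library deposited again (chi-square per gene of at least 3.00). Alternatives were RLE, DESeq2 1.42.0, other filters and thresholds, a replicate block, all 18 libraries in 1 fit and each library left out.

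The AHR genes and the lists were chosen with earlier results of these data known. ARNT2, NQO1 and list genes called in any comparison were named by rule, as were the 2 genes most like each AHR gene of at least 1 CPM; other list genes, COL1A1 and SERPINA1 were named after their values were seen. Some list genes are not reported here. Response elements were searched in RefSeq promoters and hg38.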

Additional observations from a re-analysis of the deposited data

Results flagged for a closer look

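Among the AHR genes, 4 responded to niraparib differently in PARP1 KO and WT cells by a test of the difference itself (edgeR, adjusted P value below 0.05), beside 22.9% of all genes. The interaction, the effect in PARP1 KO minus that in WT, was -1.13 on the log2 scale for AHR, -0.54 for TIPARP, -0.21 for ARNT and 0.78 for CYP1B1, and those of TIPARP and ARNT were under 1.5-fold and so not called. For olaparib the effect on TIPARP differed between the genotypes, with an interaction of -0.35, also under 1.5-fold, beside 2.27% of all genes. The ARNT difference was lost without 1 library (adjusted P up to 0.057) and that of TIPARP with olaparib without any of 6 of the 12 (adjusted P up to 0.089). A difference of genotype and one of cell line cannot be told apart here.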

How the results depend on the processing

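With the limit on fold dropped and that on the adjusted P value kept, the AHR genes called numbered 5 for niraparib and 2 for olaparib in WT, 3 between the drugs in WT, 2 for olaparib in PARP1 KO, 3 between the drugs in PARP1 KO, 4 in the niraparib interaction and 1 in the olaparib interaction. With an absolute log2 fold change above 1.5, as the study's methods word the limit (elsewhere it gives 1.5-fold, the limit used here), 0 were called in each comparison that had any. Leaving out 1 library gave 0 to 1 between the drugs in PARP1 KO, where the CYP1A1 call was lost, and 2 to 3 in the niraparib interaction, where TIPARP passed 1.5-fold without PARP1 KO DMSO replicate 3 (-0.59) or WT DMSO replicate 2 (-0.61). Under the other settings run (RLE, DESeq2, both filters, the replicate block, all 18 libraries) and in all other fits without 1 library, the counts did not change. Directions turned when 1 library was left out only for values that were not called. The ranges for AHRR were -1.25 to 0.28 (WT niraparib), -0.79 to 0.052 (WT olaparib), -0.83 to 0.64 (between the drugs in WT), -0.097 to 0.82 (genotypes in DMSO) and -0.90 to 0.77 (niraparib interaction). Those for AHR were -0.025 to 0.15 (WT olaparib) and -0.11 to 0.11 (PARP1 KO niraparib), for CYP1B1 -0.048 to 0.050 (PARP1 KO niraparib) and for CYP1A1 -0.059 to 0.40 (genotypes in DMSO). The cause was not tested. Libraries with the same number deviated together in 5 of 18 pairs (r over 0.1; range -0.56 to 0.58), so the numbers do not pair them. The replicate block left the counts of AHR genes called at 3, 0, 1, 0, 0, 1, 0, 2 and 0 in the order WT niraparib, olaparib and between them, the same for PARP1 KO, genotypes, and the interactions. RLE factors moved the median of all genes by at most 0.010 on the log2 scale.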
